A study of Homo sapiens with 4 samples.

Results

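The Wnt ligands, their receptors and the core of the signalling pathway were described at the RNA level in T24 cells, a human bladder carcinoma line, with and without the catalytic domain of TET1. The genes were all those with a WNT or FZD symbol, together with a named set of co-receptors, ligand-processing proteins, receptor-turnover regulators, cytoplasmic transducers, destruction complex components and TCF/LEF transcription factors. There were 56 such genes among the 57879 genes listed. RNAseq was available for 2 libraries of empty vector control cells (EV) and 2 of cells overexpressing the TET1 catalytic domain (TET1-CD). Both groups were transduced with a lentiviral vector, which carried the FLAG-tagged catalytic domain in TET1-CD cells and no insert in EV cells, and both were selected with puromycin. The labels call the source of all 4 libraries T24_induced. It is not stated whether the cells were clones or pools, or whether the replicates came from separate cultures, so the p-values measure the spread between these libraries, which may be technical.

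Wnt proteins are secreted lipid-modified ligands that bind Frizzled receptors at the cell surface. With the co-receptors LRP5 or LRP6, they stop a destruction complex built on Axin, APC and GSK3 from marking β-catenin for degradation, and β-catenin then acts with TCF/LEF factors in the nucleus. Other Wnts, WNT5A among them, signal through ROR and RYK receptors without β-catenin, and R-spondins with their LGR receptors raise the number of Frizzled receptors by removing the ubiquitin ligases ZNRF3 and RNF43. TET1 oxidises 5-methylcytosine in DNA, a step of active demethylation, and Wnt signalling is well known for its part in epithelial tumours.

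The libraries held 17442143 to 20295266 estimated fragments, with overlapping totals between the groups. TET1 itself went from 111 and 83 fragments with empty vector to 2939 and 3310 with TET1-CD, a log2 fold change of 5.02 (SE 0.08, edgeR adjusted p = 4.9e-10). Markers of urothelium were partly absent, with at most 10 fragments in every library for 7 of 13, including KRT5, KRT20, TP63 and the uroplakins UPK1A, UPK1B, UPK2 and UPK3A. The urothelial markers summed to an FPKM of 1479 and 1429 in EV cells against 1655 and 1621 in TET1-CD cells. Of the 6 tested, 4 were higher in TET1-CD cells at an edgeR adjusted p under 0.05. Of all genes tested, 10% were higher and 9.61% lower. The mesenchymal markers summed to 1753 and 1891 in EV and to 1405 and 1439 in TET1-CD cells, nearly all of it from VIM (log2 fold change -0.39, edgeR adjusted p = 0.00232). Of the 5 mesenchymal markers tested, VIM was lower, COL1A1 was 3.71-fold higher (edgeR adjusted p = 1.03e-05) and the others did not pass. Of the blood and endothelial markers, which summed to between 12.85 and 18.2, none of the 2 tested passed. The part of these shifts in the Wnt results was not tested, and in bulk RNA fewer cells of a type and less RNA per cell cannot be told apart.

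Of the 56 genes, 37 had enough fragments to be tested, 14 were below the filter on low counts and 5 were at 0 in every library. TET1-CD cells differed from EV cells in 11 of the 37, with 5 higher and 6 lower at an adjusted p under 0.05 by edgeR's quasi-likelihood test, adjusted by Benjamini-Hochberg over all 14573 genes tested. This is 29.7%, beside 19.7% over all genes, made up of 10% higher and 9.61% lower. The 5 higher genes were the ligand WNT5A, the ligand-inactivating enzyme NOTUM, the receptors FZD8 and ROR2, and the transcription factor TCF7. The 6 lower genes were the R-spondin receptor LGR4, the ligand WNT3, the Wnt carrier WLS, the receptors FZD1 and FZD5, and the kinase GSK3B. Of the 37, 4 (10.8%) were called with a fold change of at least 2, with ROR2, NOTUM and TCF7 higher and LGR4 lower, beside 3.77% of all genes tested (2.72% higher and 1.04% lower). The median log2 fold change over the 37 genes was -0.01, with 18 above and 19 below 0, and that over all genes was 0.001. The libraries of the 2 groups did not overlap for 23 of the 37 genes, against 61% of all genes tested. LGR4, TCF7, WNT3, FZD8 and WNT5A passed under all 12 alternative settings, and ROR2 under 11 of them. FZD1, FZD5, GSK3B, NOTUM and WLS did not pass with DESeq2, which called 6 of the 37 genes and 11.9% of all genes, nor when either TET1-CD library was left out.

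**Figure D1:**
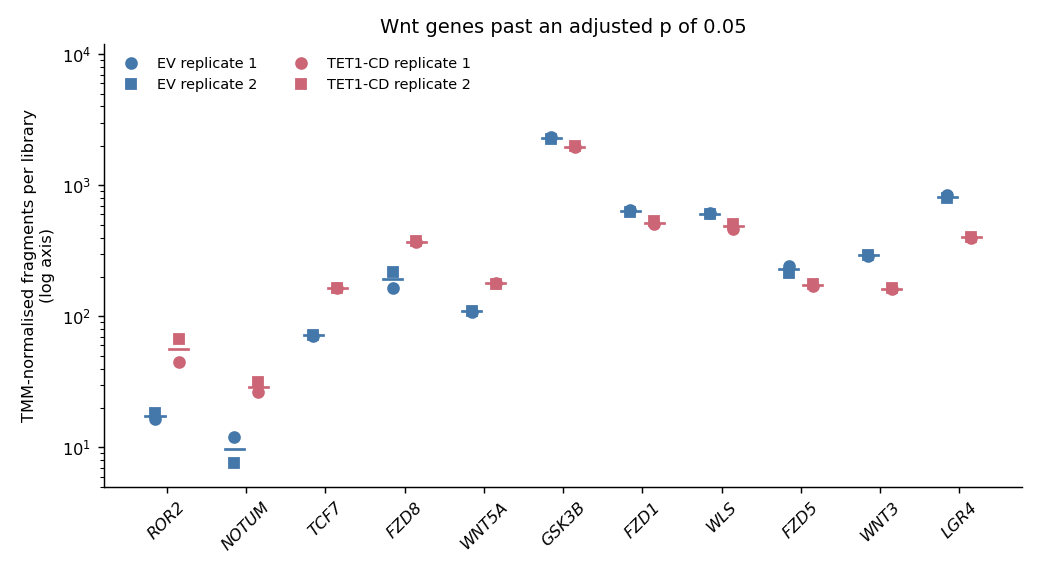
Normalised fragments per library (log axis) of the 11 Wnt genes past an adjusted p of 0.05, ordered by fold change, with EV libraries in blue and TET1-CD libraries in red; horizontal bars are the means of 2 libraries. Both TET1-CD libraries lie above both EV libraries for the 5 genes on the left and below them for the 6 genes on the right, and the gaps between the groups are narrow for GSK3B, FZD1 and WLS beside those of ROR2, NOTUM, TCF7 and LGR4.

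TET1 acts on cytosines of CpG dinucleotides, and the promoters of the members with the largest fold changes are therefore shown. Each sequence holds the 250 bases before the RefSeq start site on the strand of the gene (promoter table of GRCh38.p14), and each had 1 exact match in GRCh37, which gives the coordinates. CpG dinucleotides are in capitals. No promoter of NOTUM is printed.
LGR4, chr11:27494338-27494587, minus strand: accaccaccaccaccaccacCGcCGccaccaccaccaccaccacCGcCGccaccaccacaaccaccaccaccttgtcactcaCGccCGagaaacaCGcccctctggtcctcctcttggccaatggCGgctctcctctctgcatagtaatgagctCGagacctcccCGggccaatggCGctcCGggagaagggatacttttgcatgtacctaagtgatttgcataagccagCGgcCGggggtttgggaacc
WNT3, chr17:44896059-44896308, minus strand: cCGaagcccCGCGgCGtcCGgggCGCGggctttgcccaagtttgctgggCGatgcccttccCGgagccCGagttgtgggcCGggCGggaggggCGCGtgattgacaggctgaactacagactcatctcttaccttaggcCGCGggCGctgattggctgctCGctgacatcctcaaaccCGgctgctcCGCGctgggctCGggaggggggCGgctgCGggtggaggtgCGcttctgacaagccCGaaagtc
TCF7, chr5:133451054-133451303, plus strand: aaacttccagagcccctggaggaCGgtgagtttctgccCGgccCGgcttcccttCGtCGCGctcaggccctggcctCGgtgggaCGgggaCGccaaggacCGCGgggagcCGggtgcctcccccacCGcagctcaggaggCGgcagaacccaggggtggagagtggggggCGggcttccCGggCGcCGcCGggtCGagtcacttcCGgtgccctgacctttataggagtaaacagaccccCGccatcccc
FZD8, chr10:35931225-35931474, minus strand: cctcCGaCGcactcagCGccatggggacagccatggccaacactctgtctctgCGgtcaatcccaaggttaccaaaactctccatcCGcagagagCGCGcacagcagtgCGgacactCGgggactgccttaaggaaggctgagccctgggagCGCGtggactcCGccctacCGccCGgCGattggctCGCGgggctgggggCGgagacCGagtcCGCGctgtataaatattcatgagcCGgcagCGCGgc
ROR2, chr9:94712511-94712760, minus strand: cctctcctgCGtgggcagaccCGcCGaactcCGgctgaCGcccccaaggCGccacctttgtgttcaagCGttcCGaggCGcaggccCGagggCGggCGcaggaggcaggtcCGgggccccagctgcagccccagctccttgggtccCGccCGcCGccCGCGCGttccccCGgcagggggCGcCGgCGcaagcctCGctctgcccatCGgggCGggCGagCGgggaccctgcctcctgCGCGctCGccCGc

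These 250 bases held 14 CpG dinucleotides in LGR4, 26 in WNT3, 22 in TCF7, 24 in FZD8 and 32 in ROR2, against a median of 11 over 35116 RefSeq promoters. The start site used for TCF7 lies close to the start of its most abundant transcript, and a second RefSeq start of TCF7, further downstream, has 1 CpG in its window. Promoters were found for 42 of the 56 Wnt genes, in 54 windows with a median of 22.5 CpG. The 6 windows of the higher genes had a median of 20, the 7 of the lower genes 19, and the 23 of the tested genes that did not pass 24. The ranges overlapped, with 1 to 32 CpG in the windows of the higher and 10 to 30 in those of the lower genes. The TCF/LEF core motif CTTTGAT (either strand) was in 0 of the 54 windows and in 2.26% of all promoters of the same length. No methylation values were used here, so the methylation state of these windows in the libraries is not known.

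Among the 19 WNT genes, 7 were tested, and 1 was higher and 1 lower in TET1-CD cells (28.6%, beside 19.7% of all genes). WNT5B was the most abundant ligand on the FPKM scale, which accounts for transcript length, with 24.64 and 21.93 in EV cells against 23.57 and 22.36 in TET1-CD cells. WNT7B followed with an FPKM of 6.99 and 6.25 in EV cells against 7.55 and 7.69 in TET1-CD cells, and WNT3 with 4.61 and 4.68 in EV cells against 2.59 and 2.64 in TET1-CD cells. The order of these 3 ligands was the same in all 4 libraries.

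WNT3, a ligand of the β-catenin branch, had 314 and 274 fragments in EV libraries and 152 and 173 in TET1-CD libraries. Both TET1-CD libraries were far below both EV libraries. The normalised fragments were 292.7 ± 4.19 (SD, n = 2) in EV and 163.3 ± 2.13 in TET1-CD cells. WNT3 fell by 0.84 on the log2 scale (SE 0.11, edgeR adjusted p = 6.93e-04), or 1.79-fold lower. The gene (ENSG00000108379) is on the minus strand of chromosome 17 (GRCh37, 44839872 to 44910520), and its estimated fragments fell on a single transcript, ENST00000225512, with 1065 coding bases.

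WNT5A, the best studied ligand of the branch without β-catenin, went the other way, with 118 and 102 fragments in EV and 169 and 186 in TET1-CD libraries. Its normalised fragments were 109.5 ± 0.836 (SD, n = 2) and 178.5 ± 1.91, and the log2 fold change was 0.70 (SE 0.13, edgeR adjusted p = 0.00487), 1.63-fold higher. The gene (ENSG00000114251) is on the minus strand of chromosome 3 (GRCh37, 55499743 to 55523973). An antisense gene in the same place, WNT5A-AS1, had at most 5 fragments in any library.

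WNT5B and WNT7B, the most abundant ligands, did not pass the test. WNT5B had a log2 fold change of -0.09 (95% interval -0.24 to 0.07) and WNT7B one of 0.19 (SE 0.09, edgeR adjusted p = 0.159). WNT9A had a value of 0.36 (SE 0.21), WNT2B one of 0.19 (SE 0.19) and WNT10B one of -0.48 (SE 0.39), and none of the 3 passed. WNT2B overlaps ST7L on the other strand and has fragments split between genes. WNT7A had 7 and 8 fragments in EV and 1 and 9 in TET1-CD libraries, too few for the test. WNT1, WNT8A, WNT8B and WNT9B had 0 fragments in every library, where a count of 0 allows up to 3 fragments by counting error alone. The other 7 WNT genes, WNT2, WNT3A, WNT4, WNT6, WNT10A, WNT11 and WNT16, stayed below the filter.

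The FPKM sum over all WNT genes was 39.55 and 36.57 in EV cells against 38.85 and 37.27 in TET1-CD cells, so the totals of the groups overlapped while the make-up differed. WNT5B accounted for 60% to 62.3% of the sum in every library. WNT3 took 11.7% and 12.8% of it in EV and 6.67% and 7.08% in TET1-CD libraries. WNT5A went from 2.71% and 2.65% in EV to 6.49% and 4.56% in TET1-CD libraries. In FPKM, WNT5A stood at 1.07 and 0.97 in EV and 2.52 and 1.7 in TET1-CD libraries, below WNT3 in every library but closest to it in TET1-CD replicate 1. These shares depend on how fragments were assigned to the transcripts of WNT5A, since those differ in length.

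**Figure D2:**
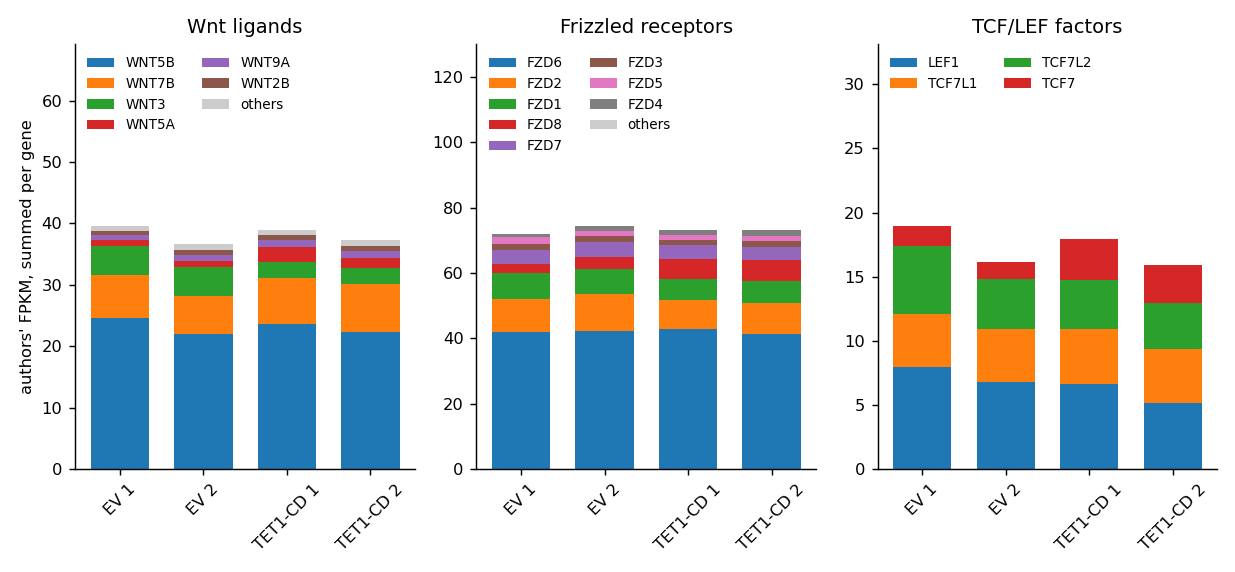
FPKM per library, added up by gene and stacked within the Wnt ligands, the Frizzled receptors and the TCF/LEF factors; each bar is 1 library and the axis starts at 0. WNT5B and FZD6 make up 60% to 62.3% and 56.7% to 58.7% of their families, and the segments of WNT3 shrink and those of FZD8 and TCF7 grow in the TET1-CD libraries.

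The proteins that make and inactivate Wnt ligands moved in different directions. NOTUM, a secreted enzyme that removes the lipid from Wnt proteins, had 13 and 7 fragments in EV and 25 and 33 in TET1-CD libraries. All TET1-CD values were above the EV values, at a very low level. The log2 fold change was 1.54 (SE 0.40, 95% interval 0.64 to 2.44, edgeR adjusted p = 0.0243), or 2.91-fold, and with fewer than 10 fragments in EV replicate 2 the size of the change is poorly known. WLS, which carries Wnt proteins to the cell surface, had 663 and 563 fragments in EV and 436 and 534 in TET1-CD libraries, and fell by 0.32 on the log2 scale (SE 0.08, edgeR adjusted p = 0.023). PORCN, the enzyme that attaches the lipid, had 161.7 ± 9.41 normalised fragments (SD, n = 2) in EV and 161.2 ± 15.8 in TET1-CD cells, with a 95% interval of the log2 fold change from -0.30 to 0.30.

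FZD6 was the main Frizzled receptor, with an FPKM of 41.95 and 42.26 in EV cells against 42.88 and 41.38 in TET1-CD cells, which is 56.7% to 58.7% of the Frizzled sum. Its log2 fold change was -0.01 (95% interval -0.13 to 0.11), and the libraries of the groups overlapped. FZD2 came next with an FPKM of 8.87 to 11.19, followed by FZD1 in every library. Of the 8 Frizzled genes tested, 1 was higher and 2 were lower in TET1-CD cells (37.5%, beside 19.7% of all genes).

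FZD8 had 179 and 202 fragments in EV and 347 and 394 in TET1-CD libraries. Its lower TET1-CD library was well above the higher EV library, and the EV libraries differed more from each other than the TET1-CD libraries did. Normalised fragments were 191.6 ± 37.3 (SD, n = 2) in EV and 372.3 ± 4.23 in TET1-CD cells, a log2 fold change of 0.97 (SE 0.13, edgeR adjusted p = 9.33e-04), or 1.95-fold. FZD8 (ENSG00000177283) is a single-exon gene on chromosome 10, listed from 35927177 to 35930362 on the minus strand. The RefSeq start used for its promoter window, 35931224, lies upstream of this span. FZD8 made up 3.85% and 4.9% of the Frizzled FPKM in EV and 8.52% and 8.67% in TET1-CD libraries. It stood below FZD7 in EV and above FZD7 in TET1-CD libraries, with an FPKM of 4.08 and 4.82 for FZD7 in EV cells against 4.36 and 4.23 in TET1-CD cells.

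FZD1 had 698 and 580 fragments in EV and 476 and 558 in TET1-CD libraries, and fell by 0.29 on the log2 scale (SE 0.08, edgeR adjusted p = 0.0288). FZD5 had 263 and 198 fragments in EV and 159 and 184 in TET1-CD libraries, and fell by 0.41 (SE 0.12, edgeR adjusted p = 0.04). Both falls were small beside the rise of FZD8. FZD2 with a log2 fold change of -0.22, FZD3 with -0.11, FZD4 with 0.34 and FZD7 with -0.06 did not pass. FZD4 overlaps PRSS23, a more abundant gene on the other strand with 2302 to 3310 fragments, which was lower in TET1-CD cells (log2 fold change -0.34, edgeR adjusted p = 0.002), and neither gene has whole counts in the deposited estimates. FZD9 was below the filter and FZD10 was at 0 in every library. The Frizzled FPKM summed to 71.96 and 74.31 in EV and 72.99 in each TET1-CD library, so the TET1-CD sums lay between those of EV.

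The co-receptors of the β-catenin branch did not pass the test. LRP5 had a log2 fold change of -0.05 (95% interval -0.20 to 0.11) and LRP6 one of 0.03 (95% interval -0.19 to 0.25), with 736 to 1175 fragments per library for the pair. In the other branch, RYK, the most abundant co-receptor, had a value of 0.02 (95% interval -0.11 to 0.15).

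ROR2, a receptor tyrosine kinase that binds WNT5A, rose. It had 18 and 17 fragments in EV and 42 and 71 in TET1-CD libraries. The TET1-CD libraries were both above the EV libraries but far apart from each other, with 56.2 ± 16.2 normalised fragments (SD, n = 2) against 17.5 ± 1.23 in EV. The log2 fold change was 1.69 (SE 0.32, 95% interval 0.98 to 2.40, edgeR adjusted p = 0.00549), or 3.22-fold, and without TET1-CD replicate 2 it was 1.35 and did not pass. ROR2 (ENSG00000169071) is on the minus strand of chromosome 9 (GRCh37, 94325373 to 94712444). Its FPKM stayed below 1 in every library, against 2.3 to 2.98 for its relative ROR1, which had a log2 fold change of 0.27 (95% interval 0.02 to 0.52, edgeR adjusted p = 0.124).

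LGR4 had the smallest adjusted p of the 37 genes. This R-spondin receptor had 908 and 741 fragments in EV and 376 and 421 in TET1-CD libraries. Both TET1-CD libraries were at about the same level after normalisation and far below both EV libraries, with 818.7 ± 27.1 (SD, n = 2) in EV and 400.6 ± 0.592 in TET1-CD cells. LGR4 fell by 1.03 on the log2 scale (SE 0.08, edgeR adjusted p = 2.31e-05), or 2.04-fold lower, and its FPKM went from a mean of 8.38 to one of 4.28. The gene (ENSG00000205213) is on the minus strand of chromosome 11 (GRCh37, 27387508 to 27494322).

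The related receptors LGR5 and LGR6 were below the filter. The ubiquitin ligase ZNRF3, which removes Frizzled receptors and is itself held back by R-spondins with LGR proteins, had 286 to 373 fragments per library and a log2 fold change of 0.03 (95% interval -0.20 to 0.26). RNF43, the related ligase, was below the filter. Of the R-spondins, RSPO3 alone was tested, with 25 and 30 fragments in EV, 50 and 36 in TET1-CD libraries and a log2 fold change of 0.66 (SE 0.32, edgeR adjusted p = 0.189), which did not pass. RSPO1 and RSPO4 were at 0 in every library.

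Inside the cell, the Dishevelled proteins, which relay the signal from Frizzled, had log2 fold changes of 0.01 for DVL1, -0.08 for DVL2 and 0.06 for DVL3, and none passed the test. The Dishevelled antagonists NKD1 and NKD2 were below the filter. CTNNB1, which encodes β-catenin, was the most abundant of the 37 genes by fragments, with 10119 and 8551 in EV and 8001 and 9859 in TET1-CD libraries. Its groups overlapped, and the log2 fold change was -0.05 (95% interval -0.18 to 0.08, edgeR adjusted p = 0.59).

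Of the destruction complex, GSK3B, the kinase that marks β-catenin for degradation, had 2548 and 2078 fragments in EV and 1854 and 2083 in TET1-CD libraries. Before normalisation the groups overlapped, and after it both TET1-CD libraries were below both EV libraries. By fragments, GSK3B fell by 0.22 on the log2 scale (SE 0.06, edgeR adjusted p = 0.023). In FPKM the groups overlapped, at 24.86 and 20.91 in EV and 20.93 and 23 in TET1-CD libraries. A fit of log2(FPKM + 1) by limma gave -0.05 (SE 0.10, limma adjusted p = 0.768). APC, with a log2 fold change of -0.13 (95% interval -0.36 to 0.10), and AXIN1, with -0.01 (95% interval -0.17 to 0.14), did not pass. AXIN2, both a scaffold of the complex and a widely used target of β-catenin, had 18 and 16 fragments in EV and 18 and 17 in TET1-CD libraries. Its log2 fold change was 0.06, with a 95% interval from -0.80 to 0.91, and a change within this interval was not detectable at this depth. The FPKM of AXIN2 differed from this, at 0.21 and 0.22 in EV and 0.66 and 0.31 in TET1-CD libraries. The limma fit of log2(FPKM + 1) gave 0.28 (SE 0.14, limma adjusted p = 0.237), which did not pass.

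**Figure D3:**
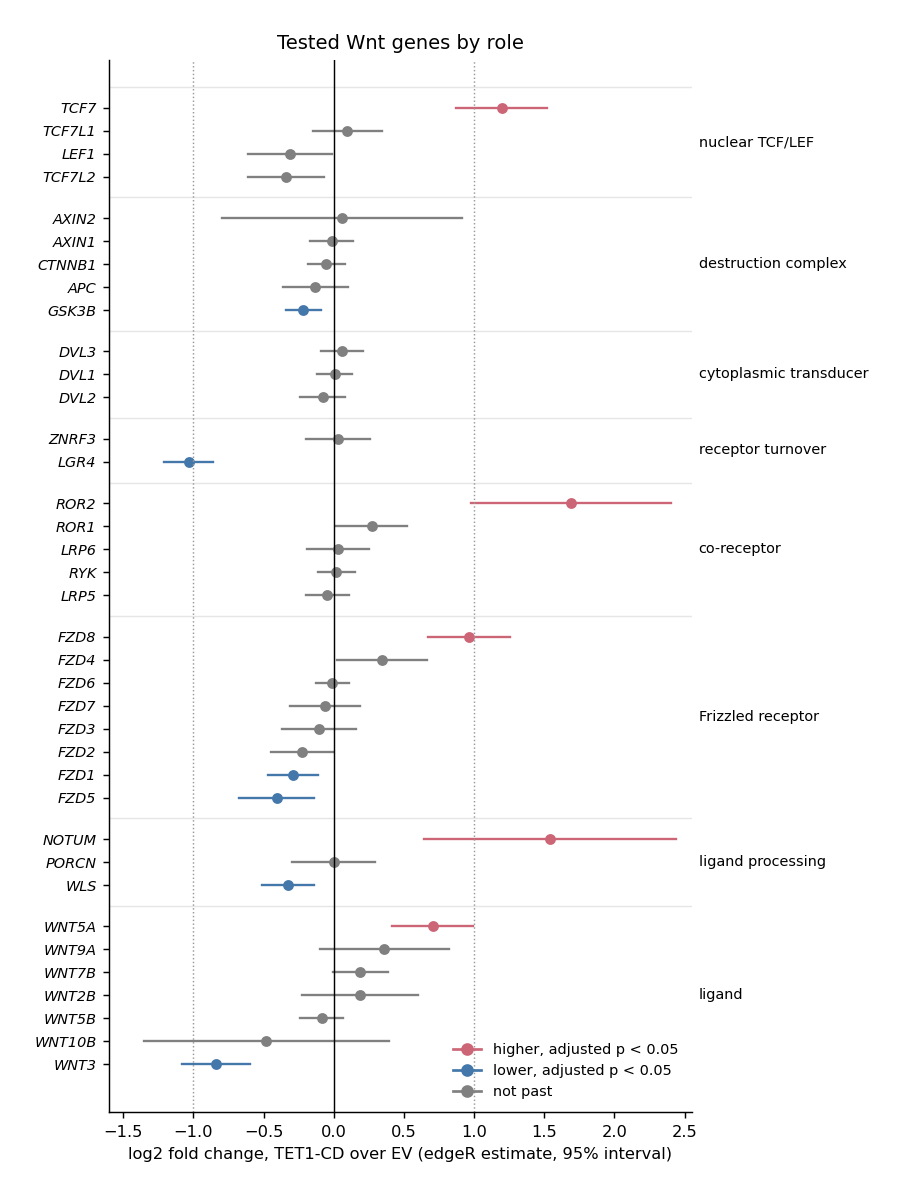
Log2 fold change (TET1-CD over EV, edgeR) with its 95% interval for the 37 tested Wnt genes, grouped by role; red genes were higher and blue genes lower at an adjusted p under 0.05, grey genes did not pass, and dotted lines mark a 2-fold change. ROR2 and NOTUM have the highest values with wide intervals, LGR4 is the lowest, and the Dishevelled genes, CTNNB1 and AXIN1 sit near 0 with narrow intervals. The interval of APC is wider, from -0.36 to 0.10.

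The TCF/LEF factors, the DNA-binding partners of β-catenin, differed from one another. TCF7, also known as TCF-1, had 77 and 67 fragments in EV and 155 and 172 in TET1-CD libraries. The groups were well separated and the replicates nearly equal after normalisation, at 71.7 ± 0.881 (SD, n = 2) in EV and 164.4 ± 0.80 in TET1-CD cells. This gave a log2 fold change of 1.20 (SE 0.15, edgeR adjusted p = 4.77e-04), or 2.29-fold. The gene (ENSG00000081059) is on the plus strand of chromosome 5 (GRCh37, 133450402 to 133487556).

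LEF1, the most abundant factor of the family, had 299 and 220 fragments in EV and 215 and 196 in TET1-CD libraries, with a log2 fold change of -0.31 (95% interval -0.61 to -0.01, edgeR adjusted p = 0.133). TCF7L2 had a value of -0.34 (SE 0.12, edgeR adjusted p = 0.0776) and TCF7L1 one of 0.10 (SE 0.11, edgeR adjusted p = 0.586). None of these 3 passed. LEF1 took 42.1% and 42.3% of the TCF/LEF FPKM in EV and 36.8% and 32.1% in TET1-CD libraries, and TCF7 went from 8.03% and 8% to 17.9% and 18.5%. Even so, TCF7 had the lowest FPKM of the 4 factors in every library, at 1.52 and 1.29 in EV cells against 3.2 and 2.95 in TET1-CD cells.

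The files give estimates for single transcripts, and for TCF7 these are listed for forms with different proteins. ENST00000395023, with 807 coding bases, had 52.7 and 37 fragments in EV and 93.9 and 102.3 in TET1-CD libraries. ENST00000342854, with 1152 coding bases, had 7.5 and 26.4 in EV and 49 and 44.7 in TET1-CD libraries. Both forms were thus listed higher in both TET1-CD libraries, with log2 fold changes of 1.15 (SE 0.27) and 1.46 (SE 0.79). The longer form took 9.7% of the TCF7 fragments in EV replicate 1 and 39.4% in EV replicate 2. The division between the forms was thus not stable between replicates. In the annotation the longer form begins its coding sequence at 133450598 and the shorter at 133451629, so the shorter lacks the N-terminal part through which TCF factors bind β-catenin. SKP1, which overlaps the 3′ end of the TCF7 gene on the other strand, starts at 133484633, beyond the ends of both transcripts, and had a log2 fold change of -0.06.

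Most fragments of LGR4 were assigned to ENST00000379214, with 785.9 and 741 fragments in EV and 274.3 and 380.3 in TET1-CD libraries. The second, ENST00000389858, had 122.1 and 0 in EV and 98.7 and 39.7 in TET1-CD libraries, so its share was not stable between replicates. The transcripts of WNT5A were divided as unevenly, with 56.4 and 101.4 fragments in EV and 110.5 and 138.5 in TET1-CD libraries for ENST00000474267, and 59.3 and 0.6 in EV and 33.9 and 44.8 in TET1-CD libraries for ENST00000264634. Both of these encode 1140 coding bases. Over the 88 transcripts of the Wnt genes that were tested, 0 passed by edgeR with Benjamini-Hochberg adjustment over 43214 transcripts, where 1 transcript passed in all (0.00231%). At an unadjusted p under 0.05 there were 12 of the 88, beside 11.2% of all transcripts. DESeq2 called 9 of the 88 (10.2%), beside 6.4% of all transcripts. Among these 9 were transcripts of APC, WNT5B and CTNNB1, whose genes did not pass. That of APC, ENST00000457016, had 210 and 157.3 fragments in EV and 0 and 0.3 in TET1-CD libraries (edgeR adjusted p = 0.133).

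**Figure D4:**
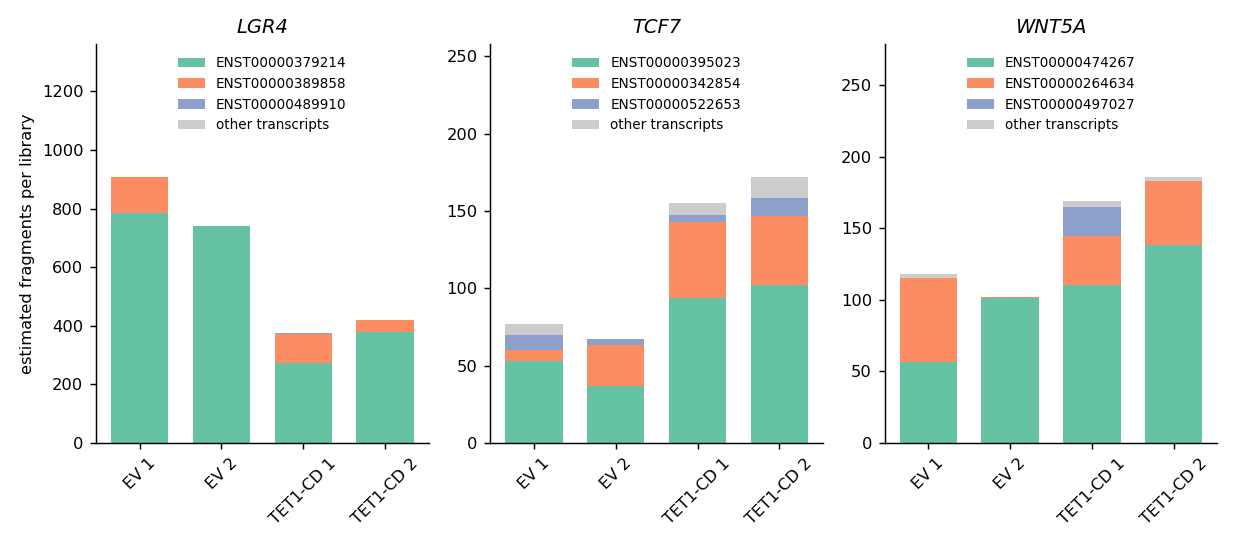
Estimated fragments per library, stacked by transcript, for LGR4, TCF7 and WNT5A; bars are single libraries before normalisation and the axes start at 0. The gene totals of the replicates lie close together, while the division between transcripts differs between replicates, as for WNT5A with 0.6 fragments on its second transcript in EV replicate 2 against 59.3 in EV replicate 1.

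Other genes of the pathway were taken from a list of 123 inhibitors, regulators, partners and targets, of which 92 were tested. Of these 21.7% passed, with 7 higher and 13 lower, which is close to the 19.7% over all genes, and their median log2 fold change was -0.03. Among 7 tested secreted inhibitors, R-spondins and their receptors, 2 were higher and 2 lower (57.1%, beside 19.7% of all genes). DKK1, an inhibitor that blocks LRP5 and LRP6, had a log2 fold change of 1.23 (SE 0.05). Its receptors differed in direction, with KREMEN1 at 0.50 (SE 0.10, edgeR adjusted p = 0.00928) and KREMEN2 at -1.23 (SE 0.37, edgeR adjusted p = 0.0429). KREMEN2 did not pass with DESeq2 or without EV replicate 2, and neither KREMEN gene passed without TET1-CD replicate 1. TPBG, a cell-surface inhibitor of the β-catenin branch, fell by 0.37 (SE 0.06, edgeR adjusted p = 0.00361).

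None of the 22 tested regulators of β-catenin passed by edgeR, and 5 (22.7%) had an unadjusted p under 0.05, beside 19.7% and 33.2% of all genes. Among 19 nuclear partners, of which 15.8% passed, the co-repressor TLE3 rose by 0.53 (SE 0.10), and TBL1XR1 and BCL9L fell by 0.31 (SE 0.06) and 0.23 (SE 0.05), although these 2 did not pass when either TET1-CD library was left out. In the planar polarity and non-canonical group, 2 of 20 were higher and 4 lower (30%). CELSR1 had 2292 and 1940 fragments in EV and 1188 and 1354 in TET1-CD libraries and fell by 0.72 on the log2 scale (SE 0.06, edgeR adjusted p = 2.59e-05), and CELSR2 fell by 0.57 (SE 0.06). These atypical cadherins of the planar polarity system thus fell, as did CAMK2D, a calcium-dependent kinase, by 0.44 (SE 0.10), and PTK7, a Wnt co-receptor, by 0.26 (SE 0.06), whereas CELSR3 rose by 0.41 (SE 0.10) and the kinase MAPK8 by 0.23 (SE 0.07). CELSR1 and CELSR2 passed under all 12 alternative settings. CELSR3 and MAPK8 did not pass with DESeq2, CELSR3, MAPK8 and PTK7 did not pass when either TET1-CD library was left out, and CAMK2D did not pass without TET1-CD replicate 2.

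**Figure D5:**
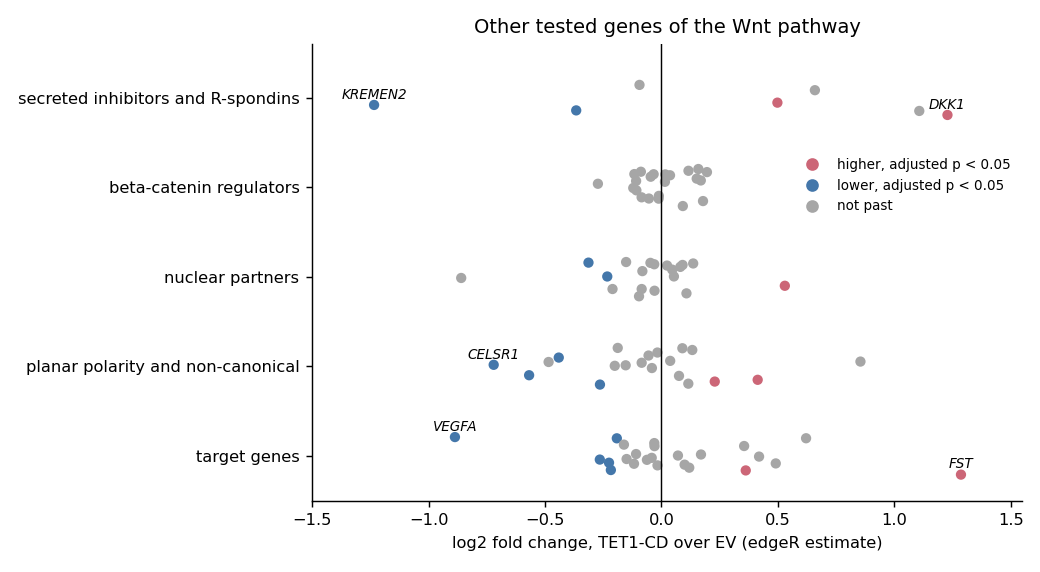
Log2 fold change (TET1-CD over EV, edgeR) of the 92 other tested Wnt pathway genes, with 1 point per gene in 5 groups; red points were higher and blue points lower at an adjusted p under 0.05, vertical scatter has no meaning, and the genes past the test with the largest changes are named. The β-catenin regulators lie close to 0 with none past the test, and each of the other groups holds genes on both sides.

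Of 24 tested targets of β-catenin, 2 were higher and 5 lower (29.2%, beside 19.7% of all genes). FST, which encodes follistatin, had 1192 and 1041 fragments in EV and 2618 and 2766 in TET1-CD libraries, a log2 fold change of 1.29 (SE 0.06, edgeR adjusted p = 6.25e-07). VEGFA, an angiogenic factor, had 3364 and 3018 in EV and 1596 and 1827 in TET1-CD libraries and fell by 0.89 (SE 0.06, edgeR adjusted p = 6.65e-06). PPARD, a nuclear receptor, rose by 0.36 (SE 0.09, edgeR adjusted p = 0.0191). The matrix protein gene FN1 fell by 0.26 (SE 0.06, edgeR adjusted p = 0.0141), JUN, a subunit of AP-1, by 0.23 (SE 0.06, edgeR adjusted p = 0.0195), CCND1, which encodes cyclin D1, by 0.22 (SE 0.06, edgeR adjusted p = 0.0275) and the adhesion receptor CD44 by 0.19 (SE 0.06, edgeR adjusted p = 0.0387). FST and VEGFA passed under all 12 alternative settings, whereas FN1, JUN, CCND1 and CD44 did not pass when either TET1-CD library was left out, nor PPARD without TET1-CD replicate 1. MYC had a log2 fold change of -0.12 (SE 0.06, edgeR adjusted p = 0.192) and SP5, a direct target in many tissues, one of -0.03 (SE 0.23), and neither passed. Many of these genes have other regulators, so their levels are no direct measure of Wnt signalling.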

How the data were processed

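The RNAseq comprised 4 libraries of T24 cells, grouped by their labels as EV (2) or TET1-CD (2). For each of 195700 transcripts the authors deposited expected counts, that is, estimated fragments that need not be whole, and FPKM values. The submitters' processing notes name cutadapt 1.9.1, HISAT2 2.0.1, HTSeq 0.6.1, DESeq2 and the build hg19. The estimator of the transcript values, the annotation release and the strand setting are not given in the sources used here. Because strand is unknown, overlapping genes cannot be told apart with certainty.

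Expected counts were summed per gene, rounded and tested by edgeR 4.0.16 (R 4.3.3; filterByExpr, TMM factors of 0.9934 to 1.005, glmQLFit and glmQLFTest without a block), with Benjamini-Hochberg adjustment over 14573 genes. Standard errors were obtained as the ratio of the log2 fold change to the root of the F statistic, and 95% intervals use edgeR's degrees of freedom. Normalised fragments are scaled to the mean library size. FPKM was summed per gene for levels. Transcript counts were rounded and tested likewise. The scripts were tested on simulated data. The intervals rest on edgeR's estimate of the spread between these libraries, and the floor of 3 fragments covers counting error only.

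The Wnt genes, the pathway list and the marker lists were chosen with earlier results of these data known. Named were all members past the test, a set of core members, the 3 WNT and 3 FZD genes with the highest FPKM, and up to 4 pathway genes per group with the smallest adjusted p, plus MYC, CCND1, AXIN2 and SP5. The remaining members, RSPO1, RSPO3, RSPO4, CELSR3, MAPK8, JUN, CD44 and the APC transcript were given as values for completeness, chosen after their values were seen. Replicates were distinct libraries, with a chi-square per gene of 6.41 for the EV pair, 2.75 for the TET1-CD pair and 17.64 to 21.41 across groups. Alternatives were RLE factors, library size alone, no filter, 10 counts in every library, DESeq2 1.42.0, limma-voom (limma 3.58.1), a replicate block, limma on log2(FPKM + 1) and the omission of each library.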

Additional observations from a re-analysis of the deposited data

How the results depend on the processing

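The count of 11 Wnt genes was 10 to 12 with other scaling factors, filters, limma-voom and the replicate block, but 6 with DESeq2 and 6 with limma on log2(FPKM + 1), both without FZD1, FZD5, GSK3B, NOTUM and WLS. It ranged from 5 to 13 when 1 library was left out, with 5 without TET1-CD replicate 2 and 6 without TET1-CD replicate 1. The 4 genes past a fold change of 2 became 0 with limma on log2(FPKM + 1), whose pseudocount shrinks the change of low genes. LGR4 lay close to the threshold before any pseudocount. It was 2.04-fold lower by edgeR, with a mean FPKM of 8.38 in EV against 4.28 in TET1-CD cells. The 20 other pathway genes became 8 with limma on log2(FPKM + 1) and 8 to 31 with 1 library left out, with 8 without TET1-CD replicate 1, 11 without TET1-CD replicate 2 and 31 without EV replicate 1. For transcripts, DESeq2 called 9 in place of 0, and 2766 in place of 1 over all 43214 transcripts. Among the alternatives, the share of all genes called is given only for DESeq2. Under the others, a change in the Wnt counts cannot be told apart from a change over all genes. The causes were not tested.

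Replicate numbers are shared by the groups, and the deviations of same-numbered libraries correlated at 0.007 over 14573 genes. With so few libraries, this value cannot show whether same-numbered libraries shared a culture or a batch. With the replicate block the counts were 11 Wnt genes, 4 past a fold change of 2, 22 pathway genes and 0 transcripts.

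Only members that did not pass changed sign. With 1 library left out, the log2 fold changes ranged from -0.125 to 0.017 for CTNNB1, -0.308 to 0.076 for APC, -0.077 to 0.049 for AXIN1, -0.063 to 0.178 for AXIN2, -0.111 to 0.020 for LRP5, -0.129 to 0.212 for LRP6, -0.106 to 0.094 for PORCN and -0.034 to 0.014 for FZD6. Members that passed only under an alternative were APC, FZD4 and LEF1 without EV replicate 2, FZD2, TCF7L2 and WNT7B without EV replicate 1, and TCF7L2 with no filter. With limma on log2(FPKM + 1) the value was 0.013 for AXIN1, -0.007 for LRP6 and 6.3e-04 for FZD6. PORCN was at -4.3e-05 with RLE factors, -0.002 with no filter, -0.002 with DESeq2 and -0.005 with the replicate block, and FZD6 at 0.002 with library size alone. Of 299 values for 25 named members, 251 kept direction and side of the threshold. With 2 libraries per group the spread of a single gene is borrowed from all genes, and members with few fragments, AXIN2 and NOTUM among them, are known only to within wide intervals.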
